A study of Mus musculus with 23 samples.

Results

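Mouse primordial germ cell-like cells (PGCLCs, germ cells made in culture) were compared before and after 3 days of coculture with gonadal somatic cells, by poly(A) RNA sequencing. Before the step they were PGCLCs induced for 6 days from female epiblast-like cells, in 2 samples, called day 6 PGCLCs here. After it they had been reaggregated with gonadal somatic cells of female E12.5 embryos and kept together for 3 days, in 3 samples, called reaggregated PGCLCs here. These 5 samples belong to a set of 23 in 8 groups, and the deposited table gives 1 FPKM value per gene and group (fragments scaled for transcript length and for library size). Both groups carried the strain label C57BL/6 X 129. The protocol names embryonic stem (ES) cells, kept in 2i+LIF (kinase inhibitors and leukaemia inhibitory factor), and induced pluripotent stem cells as sources, without saying which gave these samples. The PGCLCs were purified by cell sorting before reaggregation. Each reconstituted ovary was made of 5000 PGCLCs and 50000 gonadal somatic cells, and was cultured on a membrane in αMEM with 10% FCS, 150 µM ascorbic acid and 55 µM 2-mercaptoethanol, so reaggregation and a change of medium cannot be told apart. Libraries were made from 10000 cells for day 6 and from 5300 to 15000 cells for the reaggregated group, and the sources used here do not say how germ cells were recovered from the aggregates. The other groups, used only as points of reference, were ES cells, E12.5 primordial germ cells (PGCs) of B6D2F1 embryos sorted with the BVSC transgenes, and 4 oocyte groups. Cultured oocytes were taken from secondary follicles after 21 days of reaggregation, or at metaphase II (MII) after further growth. B6D2F1 oocytes were taken from secondary follicles at postnatal day 8 by sorting with the BVSC transgenes, or at MII from females of 8 weeks.

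PGCs are the embryonic founders of eggs and sperm, and in the mouse they are set aside from the epiblast by BMP signals that turn on Prdm1, Prdm14 and Tfap2c. They keep part of the pluripotency network while they migrate to the genital ridge, where contact with somatic cells goes along with the start of late germ cell genes such as Ddx4 and Dazl. In an embryonic ovary, retinoic acid and BMP signals then bring germ cells into meiosis, which Stra8 marks, and pluripotency genes are shut down.

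Of 22784 genes in the table, 11490 had at least 1 FPKM in either group and were compared, as the difference of log2(FPKM + 1) between the reaggregated and the day 6 value. A gene is said to rise or fall here where this difference was at least 1 in size, that is 2-fold on the pseudocount scale. There were 733 such genes higher after reaggregation (6.38% of those compared) and 718 lower (6.25%), and 61.0% of genes lay within 0.5 log2 units of no difference. The median over all genes was -0.08. With both columns scaled to equal sums the median was 0.14 and the counts were 1115 higher and 457 lower, which moves the share of higher among called genes from 50.5% to 70.9%, so a list median is read below against the median of all genes, and a list's counts against the 6.38% and 6.25%. The labels call the samples of a group biological replicates, but the table holds no value per sample and no depth, so no difference here has a replicate check or a test. The gene lists were chosen with earlier results of these data known, so a list's counts beside these shares are descriptions and not independent support.

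**Figure D1:**
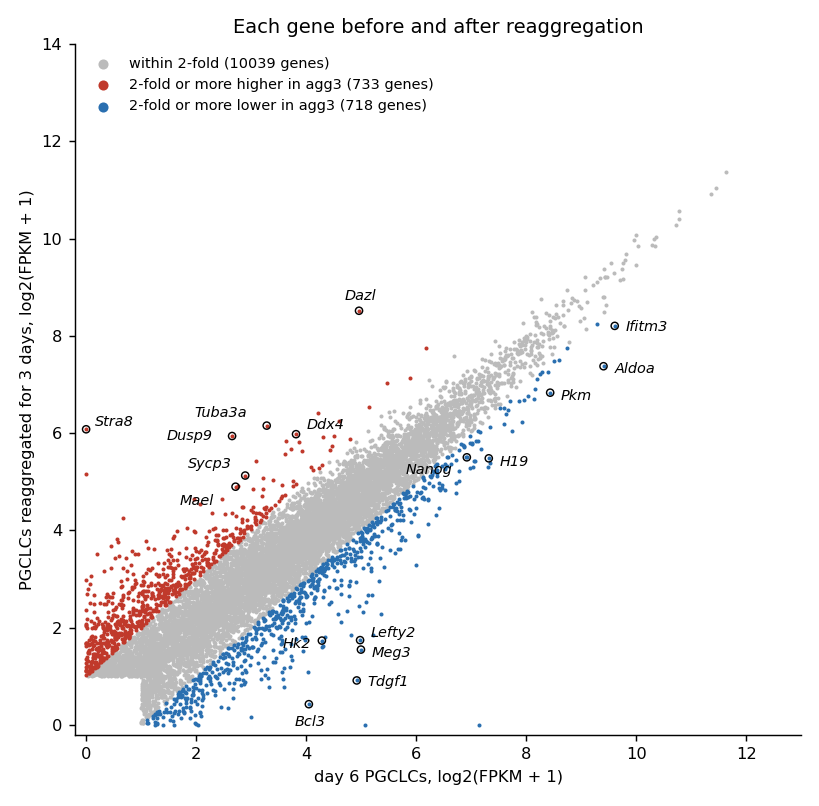
Each point is 1 of the 11490 genes compared, with log2(FPKM + 1) in day 6 PGCLCs on the horizontal axis and in reaggregated PGCLCs (agg3 in the legend) on the vertical axis. Red points are the 733 genes at least 2-fold higher after reaggregation, blue points the 718 at least 2-fold lower, and circles mark named genes, with Stra8 at 0 on the horizontal axis and Dazl far above the diagonal.

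Few genes crossed from silent to abundant or the reverse. Of the 733 higher genes, 353 had under 1 FPKM at day 6 and 175 reached 10 FPKM after reaggregation, and 11 did both. Of the 718 lower genes, 447 started at 10 FPKM or more and 140 ended under 1 FPKM, and 6 did both. Differences of at least 4-fold on the same scale were found for 84 higher and 67 lower genes.

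The germ cell identity of both groups was checked first, together with markers of the cells that could accompany them. Dppa3, a marker of PGCs, had 228 FPKM at day 6 and 209.6 after reaggregation. Pou5f1, expressed in pluripotent and germ cells, had 699 and 398 FPKM. Nanos3 and Dnd1, germ cell RNA-binding proteins, had 35.1 and 162 FPKM at day 6 and 23.4 and 102 after reaggregation. Both groups thus held the markers that their labels call for.

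Granulosa markers were low but moved with the step. Of 18 listed, 11 were compared, 7 rose (background 6.38% of all genes) and 0 fell (background 6.25%), and 9 of the 11 had under 1 FPKM at day 6 and so entered through the reaggregated value. The summed level of all 18 was 6.80 FPKM at day 6 and 27.0 after reaggregation, against 10.6 in E12.5 PGCs. A single gene gave 3.77 FPKM of the day 6 sum, and the lowest difference in the list was -0.997, just inside the 2-fold line. In ES cells the sum was 115, of which Nr0b1, a gene that ES cells express, made up 88.3. The highest granulosa marker after reaggregation was Irx3, a transcription factor of the supporting cells, at 5.63 FPKM. It had 1.02 FPKM at day 6 and 4.05 in E12.5 PGCs. Inha, an inhibin subunit, had 0.185 and 4.69 FPKM. Amhr2, the receptor of anti-Müllerian hormone, was listed at 0 and had 3.20 FPKM. Wt1 and Foxl2, transcription factors of the somatic gonad, had 1.63 and 1.28 FPKM after reaggregation. In E12.5 PGCs, Inha, Amhr2, Wt1 and Foxl2 had 0.839, 0.386, 0.430 and 0.319 FPKM. Fshr, the receptor of follicle-stimulating hormone, was listed at 0 in both groups, and Amh had 0.0536 and 0.232 FPKM. Of 18 markers of gonadal stroma and mesothelium, 8 were compared, with 2 higher and 2 lower, and their sum was 52.0 FPKM before and 40.8 after. Among 16 blood and endothelial markers, 6 were compared, with 0 higher and 2 lower (Cdh5 and Tek), and Pecam1, which germ cells also express, made up most of their sum of 107 FPKM before and 89.8 after. Markers of other embryonic lineages had sums of 49.6 FPKM before and 34.6 after for epiblast-like cells (3 of 8 compared genes higher, 2 lower), 29.2 and 14.9 for extraembryonic cells and endoderm (0 of 7 higher, 3 lower), and 14.3 and 16.1 for neural and surface ectoderm (1 of 5 higher, 2 lower). The part of somatic RNA in the differences below was not tested. Nr0b1 and Fshr are named after their values were seen. These are bulk libraries, in which a change in the share of cells of a type and a change in RNA per cell cannot be told apart.

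Late germ cell genes rose as a group. Of 31 listed genes, 28 were compared, 17 rose and 1 fell, beside 6.38% higher and 6.25% lower over all genes. Their median difference was 1.32 log2 units, against -0.08 over all genes. As 6 of the 28 had under 1 FPKM at day 6 and so could enter only by being higher, the median over all 31 with no filter is given too, at 1.25. These 6 are all among the 17 that rose. Dazl, an RNA-binding protein required for the germ cell fate, was at 7.86 FPKM in ES cells, 30.1 at day 6, 365 after reaggregation and 432 in E12.5 PGCs, a difference of 3.56 log2 units over the step. Ddx4, the germ cell RNA helicase also called Vasa, went from 13.1 to 62.1 FPKM (difference 2.16), with 135 in E12.5 PGCs. Mael, which takes part in transposon silencing, went from 5.57 to 28.9 FPKM (difference 2.18), with 112 in E12.5 PGCs. Dazl after the step was thus near the embryonic value, while Ddx4 and Mael were below it.

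Other members of the late germ cell list started near zero. Taf7l, a germ cell form of a TFIID subunit, had 0.370 FPKM at day 6 and 11.8 after. Tex101, a germ cell surface protein, had 0.651 and 9.76 FPKM, with 25.4 in E12.5 PGCs. The gene Meioc, listed in the table under its older name Gm1564 and needed to keep germ cells in meiotic prophase, had 0.148 and 10.5 FPKM, with 11.2 in E12.5 PGCs. All 3 went from under 1 FPKM to around 10 or more. Tdrd7, a Tudor protein of germ cell granules, rose from 2.00 to 13.3 FPKM.

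Not every member of the list moved. Tdrd12, a Tudor protein of the piRNA pathway, was the member that fell, from 30.9 to 14.7 FPKM, just past the 2-fold line (difference -1.02). Tex19.1, which restrains retrotransposons, had 57.5 and 54.0 FPKM, and Rpl10l, a ribosomal protein copy of germ cells, 27.1 and 25.7. Several piRNA pathway genes stood between, with Piwil2, a PIWI protein, at 12.6 and 21.7 FPKM, Asz1 at 7.04 and 10.5, and Mov10l1, a helicase, at 5.91 and 12.7, the last just inside the 2-fold line (difference 0.99). Tdrd12, Piwil2, Asz1 and Mov10l1 are named here after their values were seen.

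Stra8, the marker of meiotic entry, had the largest difference of all compared genes on the pseudocount scale. Stra8, the retinoic acid responsive gatekeeper of meiosis on chromosome 6 (34920163 to 34939344, GRCm38, RefSeq), was listed at 0 at day 6 and had 66.7 FPKM after reaggregation, with 0.267 in ES cells, 63.6 in E12.5 PGCs and at most 0.0247 in any of the 4 oocyte groups. Of 25 genes listed for meiotic entry and the retinoic acid response, 15 were compared, 8 rose and 0 fell, beside 6.38% and 6.25% of all genes. The median difference was 1.09 over these 15, of which 3 had under 1 FPKM at day 6, or 0.57 over all that the table holds with no filter. Zglp1, a GATA-like factor known to drive the oogenic programme downstream of BMP, rose from 2.91 to 23.9 FPKM, with 43.8 in E12.5 PGCs. Rec8, the meiotic cohesin subunit, rose from 13.7 to 55.1 FPKM, with 63.0 in E12.5 PGCs. After the step Stra8 was slightly above and Rec8 slightly below its E12.5 value, and Zglp1 lay between its day 6 and E12.5 values.

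Retinoic acid is carried, sensed and degraded by further members of this list. Crabp2, a retinoic acid binding protein, rose from 3.15 to 10.8 FPKM, and the receptor Rara from 4.81 to 15.1. The other receptors Rarg and Rxra had 7.33 and 3.59 FPKM at day 6 and 6.27 and 7.97 after. The degrading enzymes Cyp26a1 and Cyp26b1 stayed under 1 FPKM in both groups, at 0.0236 and 0.341 after reaggregation, and so did the synthetic enzyme Aldh1a1 (0.814), while its relative Aldh1a2 had 0.845 and 2.27 FPKM. Crabp1, another binding protein, had 13.5 and 20.9 FPKM. Msx1, a BMP target that acts in germ cell meiosis, rose from 1.13 to 5.72 FPKM, whereas its relative Msx2 had 26.7 and 13.5. Rara, Rarg, Rxra, Cyp26a1, Cyp26b1, Aldh1a1, Aldh1a2 and Msx2 are named after their values were seen.

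The synaptonemal complex, the protein ladder that holds paired chromosomes together in meiotic prophase, and the chromosome axis had 15 of 16 listed genes compared, with 10 higher and 0 lower, beside 6.38% and 6.25% of all genes. Their median difference was 1.44, or 1.28 over all 16 with no filter, since 2 of the 15 had under 1 FPKM at day 6. Sycp3, a lateral element protein, rose from 6.42 to 34.0 FPKM (E12.5 PGCs 35.6). Sycp1, the transverse filament, rose from 0.777 to 6.19 FPKM (E12.5 PGCs 23.1), and Sycp2 from 0.474 to 2.99 (E12.5 PGCs 4.45). Tex12, a central element protein, rose from 1.12 to 12.7 FPKM, Hormad1, an axis protein, from 2.02 to 13.7, and Smc1b, a meiotic cohesin subunit, from 11.3 to 55.9. Smc3, a cohesin subunit, and Trip13, an ATPase, both used by dividing cells too, stayed within 2-fold, since Smc3 had 62.1 and 59.9 FPKM and Trip13 23.1 and 22.5. Among other members within 2-fold, Syce2, a central element protein, had 156 and 133 FPKM and Stag3, a meiotic cohesin subunit, 28.9 and 55.3, both named after their values were seen.

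Among genes of meiotic recombination, 21 of 29 listed were compared, 7 rose and 0 fell, beside 6.38% and 6.25% of all genes. Their median was 0.65 (also 0.65 with no filter). As 7 of the 21 had under 1 FPKM at day 6, these could enter only by being higher. They include the risers Meiob, Tex11, Ccdc36, Ccdc79 and 1700123I01Rik, while the risers Dmc1 and Hsf2bp started above 1 FPKM. Ccdc79 is named after its values were seen. Dmc1, the meiotic recombinase, rose from 4.56 to 11.3 FPKM (E12.5 PGCs 17.7), and Hsf2bp, a partner of BRCA2, from 3.53 to 13.7. Meiob, a single-strand binding protein, rose from 0.547 to 3.51 FPKM. Spo11, which cuts the DNA to start recombination, had 1.40 FPKM at day 6 and 2.78 after, against 6.46 in E12.5 PGCs. Whether the share of risers differs between the recombination and the synaptonemal lists was not tested.

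**Figure D2:**
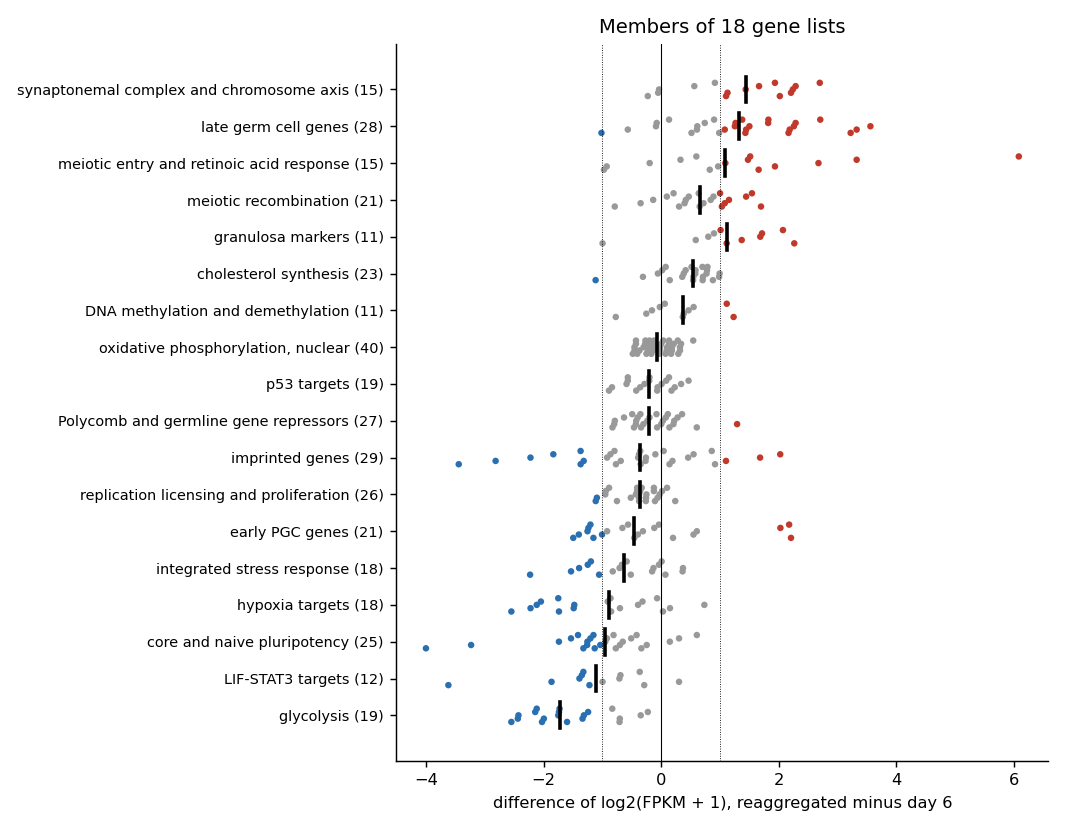
Each point is 1 compared gene of 1 of 18 lists, placed by its difference of log2(FPKM + 1), reaggregated minus day 6, with the number compared in brackets and a black bar at the list median. Red and blue points lie past the dotted 2-fold lines, and the medians run from 1.44 for the synaptonemal complex and axis to -1.73 for glycolysis.

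Promoter sequences of the genes that moved are shown because germ cell genes are known to be held silent elsewhere through DNA methylation at CG-rich starts and through repressor complexes that read the E-box (the letters CACGTG, the same on both strands) and the E2F element (TCCCGC, or GCGGGA on the other strand). Each is the RefSeq window of 300 bases, from 250 before to 50 after a transcription start, on GRCm38.p6, written in the direction of transcription. Capitals mark every E-box and E2F element, and the rest is in lower case. Stra8 and Dazl, the listed germ cell genes with the largest differences, held neither motif. Ddx4, Mael, Sycp3 and Tex12 held both, and Tdgf1, shown because it had the largest fall among the named genes, held neither. Both motifs together were found in 20.0% of late germ cell genes and 40.0% of synaptonemal complex and axis genes, beside 4.99% of all compared genes. The printed windows with both are thus not typical of either list. The Stra8 window lies inside the RefSeq span of the gene given above, at the start of one of its transcripts.
Stra8, chr6:34920698-34920997, plus strand: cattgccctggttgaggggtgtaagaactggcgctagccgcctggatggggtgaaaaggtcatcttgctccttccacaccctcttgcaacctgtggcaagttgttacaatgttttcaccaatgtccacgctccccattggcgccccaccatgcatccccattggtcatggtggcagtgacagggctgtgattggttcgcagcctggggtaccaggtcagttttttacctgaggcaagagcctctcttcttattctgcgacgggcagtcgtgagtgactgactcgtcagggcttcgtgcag
Dazl, chr17:50293571-50293870, minus strand: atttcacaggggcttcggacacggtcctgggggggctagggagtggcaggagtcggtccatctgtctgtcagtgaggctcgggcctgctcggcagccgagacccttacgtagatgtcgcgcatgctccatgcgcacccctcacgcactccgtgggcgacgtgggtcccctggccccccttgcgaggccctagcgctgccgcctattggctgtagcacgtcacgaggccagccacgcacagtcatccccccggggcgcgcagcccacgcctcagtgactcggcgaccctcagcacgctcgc
Ddx4, chr13:112652261-112652560, minus strand: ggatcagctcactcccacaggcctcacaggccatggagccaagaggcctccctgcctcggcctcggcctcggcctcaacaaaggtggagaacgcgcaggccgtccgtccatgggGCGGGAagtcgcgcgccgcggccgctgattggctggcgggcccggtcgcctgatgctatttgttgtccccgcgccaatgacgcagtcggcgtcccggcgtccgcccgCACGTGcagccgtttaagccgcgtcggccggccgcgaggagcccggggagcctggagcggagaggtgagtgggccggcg
Mael, chr1:166238695-166238994, minus strand: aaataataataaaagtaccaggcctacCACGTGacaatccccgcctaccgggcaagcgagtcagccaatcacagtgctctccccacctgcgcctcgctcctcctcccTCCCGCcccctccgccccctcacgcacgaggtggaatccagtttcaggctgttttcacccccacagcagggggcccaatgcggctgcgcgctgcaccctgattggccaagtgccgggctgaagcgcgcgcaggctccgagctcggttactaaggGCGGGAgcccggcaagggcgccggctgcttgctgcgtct
Sycp3, chr10:88459337-88459636, plus strand: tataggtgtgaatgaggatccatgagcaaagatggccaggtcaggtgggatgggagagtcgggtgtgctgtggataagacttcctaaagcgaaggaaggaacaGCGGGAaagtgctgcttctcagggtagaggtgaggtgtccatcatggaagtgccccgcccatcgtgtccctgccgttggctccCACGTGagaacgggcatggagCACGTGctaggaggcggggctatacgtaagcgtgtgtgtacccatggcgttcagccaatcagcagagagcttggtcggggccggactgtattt
Tex12, chr9:50561219-50561518, minus strand: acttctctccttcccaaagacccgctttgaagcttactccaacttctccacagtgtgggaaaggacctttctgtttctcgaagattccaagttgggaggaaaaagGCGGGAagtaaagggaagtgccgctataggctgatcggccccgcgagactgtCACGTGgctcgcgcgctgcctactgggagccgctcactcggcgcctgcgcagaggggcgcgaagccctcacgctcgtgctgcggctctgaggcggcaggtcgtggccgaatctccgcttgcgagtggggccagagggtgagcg
Tdgf1, chr9:110946109-110946408, minus strand: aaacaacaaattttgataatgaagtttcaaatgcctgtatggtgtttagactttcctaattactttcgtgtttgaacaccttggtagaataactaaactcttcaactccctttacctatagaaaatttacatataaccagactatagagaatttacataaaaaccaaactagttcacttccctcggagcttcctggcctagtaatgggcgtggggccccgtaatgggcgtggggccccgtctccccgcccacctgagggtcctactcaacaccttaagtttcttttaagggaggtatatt

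The CG pairs in these windows, not capitalised, numbered 10 for Stra8, 28 for Dazl, 38 for Ddx4, 24 for Mael, 15 for Sycp3, 26 for Tex12 and 7 for Tdgf1. The median was 23 over the 9261 compared genes with a promoter in the table (80.6%), taking the promoter with most CG pairs for a gene with several, and 7 over all 32851 promoters. An E-box lay 29 bases before the start in Ddx4, 93 before it in Tex12, 223 before it in Mael, and 64 and 43 before it in Sycp3.

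An E-box was found in a promoter of 11 of 25 late germ cell genes (44.0%) and 7 of 15 synaptonemal complex and axis genes (46.7%), beside 12.4% of all compared genes and 7.15% of all promoters. The E2F element was found in 40.0% and 60.0% of these lists, beside 41.9% of compared genes and 20.0% of all promoters. Over the 39 genes of both lists with a promoter, the E-box was present in 11 of 24 that rose (45.8%) and in 6 of 15 that did not (40.0%). It was held by 64 of the 569 genes that rose (11.2%) and 12.4% of all compared genes, and, among genes at 10 FPKM or more, by 26 of 145 that rose (17.9%) and 13.9% of all compared. Of the glycolysis genes described below, 2 of 18 (11.1%) held an E-box and 10 of 18 (55.6%) an E2F element. Pairs of the retinoic acid receptor site AGGTCA in the same direction, on either strand, with 1, 2 or 5 bases between, were in 13, 3 and 3 of all 32851 promoters and in 0 of the meiotic entry genes, Stra8 included. Pairs this rare, in at most 0.0396% of promoters, are absent from almost any list this short, so that 0 is not informative. A gene with several promoters has more chances to hold a motif, and a match in these windows is a description of letters only.

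Of 21 early PGC genes, 3 rose, 7 fell and 11 stayed within 2-fold, with a median of -0.46. Among the factors that specify PGCs, Tfap2c fell from 97.8 to 40.5 FPKM (E12.5 PGCs 47.9) and Prdm14 from 40.3 to 17.6 (E12.5 PGCs 17.3). Prdm1 had 39.8 and 28.7 FPKM, with 13.8 in E12.5 PGCs. Ifitm3, also called Fragilis, fell from 779 to 294 FPKM, with 127 in E12.5 PGCs. All 3 specification factors were thus lower in value, 2 of them past 2-fold.

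The germ cell receptor and RNA-binding genes of this list changed little. Kit, the receptor through which PGCs survive and migrate, had 84.0 and 67.5 FPKM, Dppa3 had a difference of -0.12, and Nanos3 and Dnd1 of -0.56 and -0.66. The homeobox genes Rhox9, Rhox6 and Rhox5 on the X chromosome had 407, 366 and 427 FPKM at day 6 and 396, 278 and 490.4 after. The 3 that rose were Smc1b, Hesx1 (listed at 0 and then 3.07 FPKM) and Fut4, which makes the SSEA1 sugar (0.00845 and 3.55 FPKM). Rhox6 and Rhox5 are named after their values were seen.

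Pluripotency genes fell or kept values under 2-fold. Of 27 listed, 25 were compared, 0 rose and 12 fell, with a median of -0.95. Nanog had 253 FPKM in ES cells, 120.0 at day 6, 44.4 after reaggregation and 31.9 in E12.5 PGCs. Sox2 fell from 203 to 87.6 FPKM (E12.5 PGCs 105), and Klf2 and Klf5, Krüppel-like factors of the naive state, from 130.2 to 38.3 and from 84.4 to 28.5. Pou5f1 stayed within 2-fold (difference -0.81), as did Utf1 at 494 and 391 FPKM and Dppa2 at 13.5 and 11.2. The naive factor Tfcp2l1 fell from 25.9 to 9.74 FPKM and Esrrb from 90.6 to 37.3. Nanog was at most 0.238 FPKM in the 4 oocyte groups, so its level after reaggregation was between those of day 6 and of oocytes. Lin28a, an RNA-binding protein of pluripotent and germ cells, had 39.8 and 61.2 FPKM, the largest positive difference in the list (0.61). Esrrb and Lin28a are named after their values were seen.

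Tdgf1 had the largest fall of the named genes. Tdgf1, the Nodal coreceptor also called Cripto, had 122 FPKM in ES cells, 29.2 at day 6, 0.888 after reaggregation and 0.431 in E12.5 PGCs. Lefty2 and Lefty1, inhibitors and targets of Nodal, fell from 30.5 to 2.35 and from 11.4 to 4.19 FPKM, and the ligand Nodal itself had 11.3 and 5.88. The receptors and effectors stayed within 2-fold, with Acvr2b at 20.3 and 14.5 FPKM, Acvr1b at 14.8 and 11.1 and Smad2 at 10.4 and 13.4. In the list of Nodal, Activin and sex-determination signals, 3 of 19 rose, 4 fell and the median was -0.32. Of the 3 that rose, Rspo1 and Wnt4, ovarian signals at 2.35 and 1.09 FPKM after reaggregation, are also on the granulosa list, and Fgfr3, a receptor of fibroblast growth factors, went from 4.62 to 11.0. Nodal, Acvr2b, Acvr1b and Wnt4 are named after their values were seen.

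Of 12 targets of LIF and STAT3, 0 rose and 6 fell, and the median was -1.11. Bcl3, a nuclear cofactor of NF-kappa B, fell from 15.5 to 0.346 FPKM, after 47.8 in ES cells and with 0.0894 in E12.5 PGCs. Socs3, the feedback inhibitor of the pathway, fell from 10.6 to 2.18 FPKM, the kinase Pim1 from 191 to 72.4 and Stat3 itself from 9.53 to 3.52. The shared receptor subunit Il6st had 21.8 and 16.7 FPKM. Pim3, a relative of Pim1 named after its values were seen, lay just inside the 2-fold line with 55.0 and 27.1 FPKM.

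**Figure D3:**
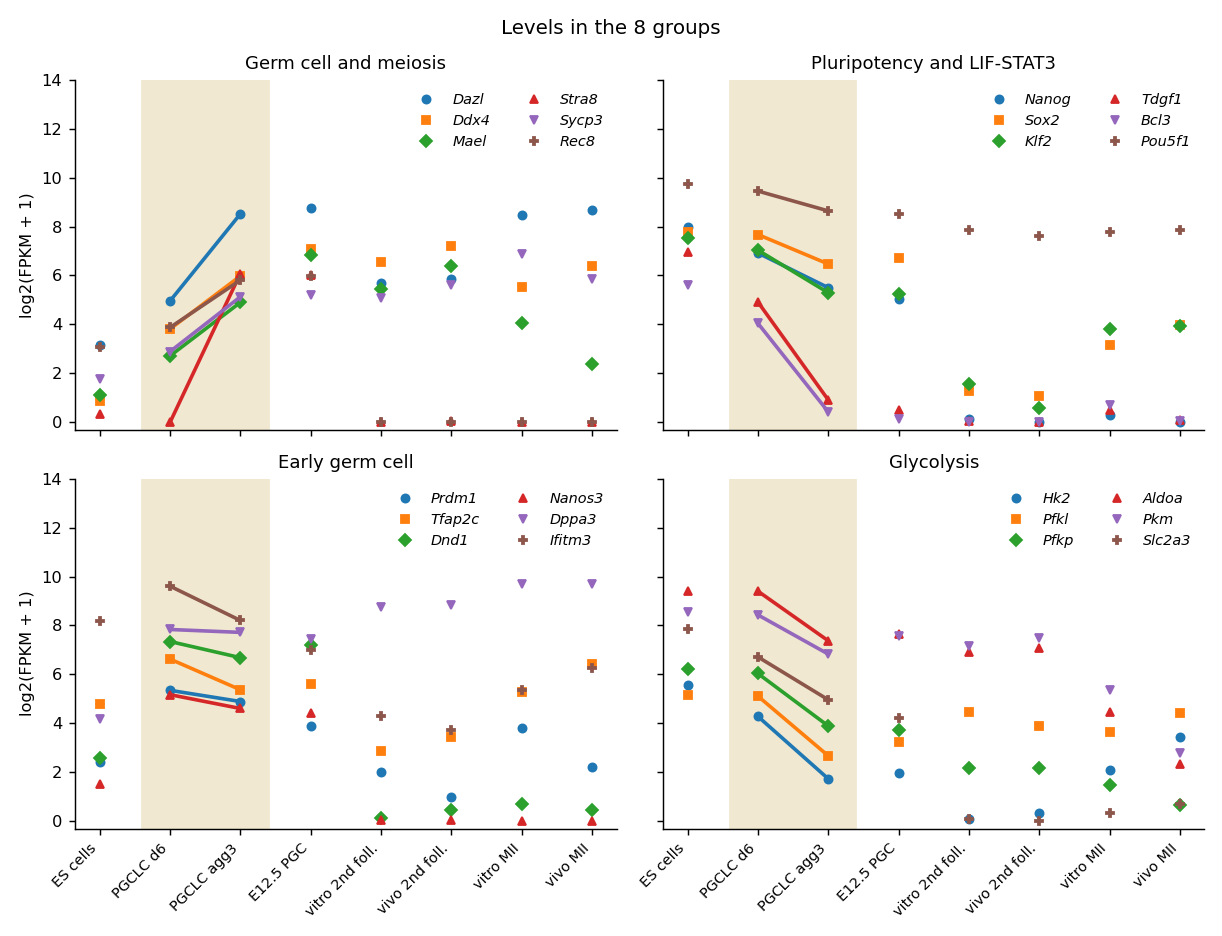
Levels as log2(FPKM + 1) on the vertical axis for 24 genes in 4 panels, with the 8 groups on the horizontal axis, 1 value per group. The shaded band holds day 6 and reaggregated PGCLCs, joined by a line: Dazl, Ddx4, Mael, Stra8, Sycp3 and Rec8 are higher on its right side, and the pluripotency and glycolysis genes are lower there.

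Glycolysis was the list that fell furthest. Of 21 genes, 19 were compared, 0 rose and 14 fell, and the median was -1.73. The falls covered glucose import, with Slc2a3 from 104 to 30.2 FPKM and Slc2a1 from 50.4 to 14.4. They also covered early steps of the pathway, with hexokinase Hk2 from 18.5 to 2.33 and the phosphofructokinases Pfkl from 33.6 to 5.39 and Pfkp from 64.7 to 13.9. Aldoa, an aldolase, fell from 676 to 165 FPKM (E12.5 PGCs 201), and Slc16a3, a lactate exporter, from 11.1 to 1.26. E12.5 PGCs had 2.88 FPKM of Hk2, 8.40 of Pfkl and 17.5 of Slc2a3, closer to the reaggregated values than to the day 6 values. Ldhb, a lactate dehydrogenase subunit, had 91.5 and 78.0 FPKM, and the muscle form Pfkm 17.7 and 10.5.

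Some glycolytic genes have almost identical pseudogenes or retrogenes, and their values are uncertain because reads could have been split among the copies. Gapdh, also named after its values were seen, had 0.151 and 0.302 FPKM and Eno1 was under 1 FPKM in all 8 groups, so neither was compared, while Eno1b, a copy of Eno1 named after its values were seen, had 73.4 and 16.6. The same limit holds for Ldha (64.5 and 14.1 FPKM), Pgk1 (10.4 and 3.60), Tpi1 and Pgam1.

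Nuclear genes of oxidative phosphorylation, the other main source of ATP, stayed level. All 40 were compared, 0 rose, 0 fell, and the median was -0.08, which has the opposite sign with quantile normalization (0.22), with centring on the median of all genes (0.00) and with equal sums (0.16). Sdha, of complex II, had 79.9 and 79.9 FPKM, and Uqcrc2, of complex III, 96.3 and 95.1. The widest differences in the list were those of Atp5a1 (-0.48) and Ndufa1 (0.54), both named after their values were seen. The glycolysis list and this list were not compared by a test.

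**Figure D4:**
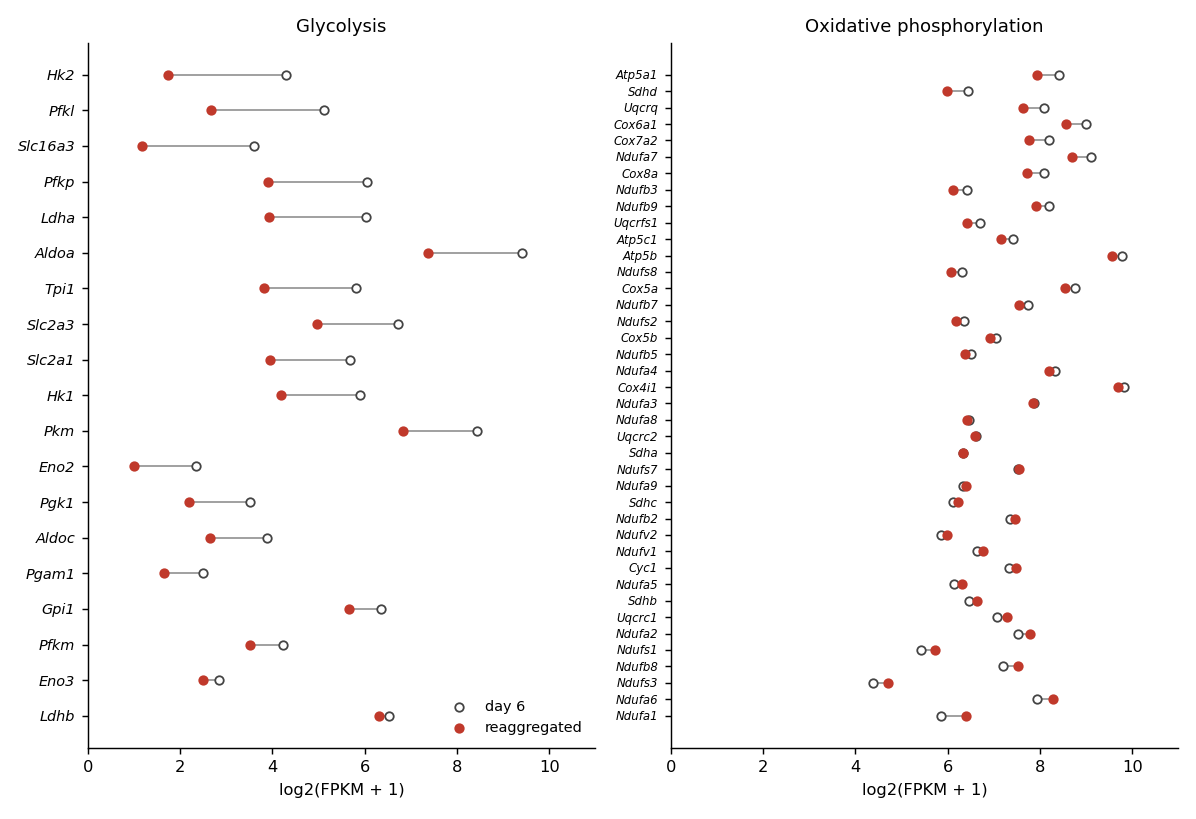
Levels of each compared gene of glycolysis (left, 19 genes) and of nuclear oxidative phosphorylation genes (right, 40 genes) as log2(FPKM + 1), with open circles for day 6 and filled red circles for reaggregated PGCLCs. In the left panel every filled circle lies to the left of its open circle, and in the right panel the pairs lie close together on both sides.

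The targets of the hypoxia response overlap with glycolysis. Of 20, 18 were compared, 0 rose and 8 fell, with a median of -0.89, and Hk2, Ldha, Slc2a1 and Slc2a3 stand on both lists. Outside glycolysis, Vegfa, the angiogenic growth factor, fell from 49.6 to 11.3 FPKM, and Ankrd37, a target of hypoxia-inducible factor, from 14.8 to 2.38. Pfkfb3, a regulator of phosphofructokinase, had 19.9 and 19.0 FPKM and Bnip3l, a mitophagy receptor, 20.7 and 23.1.

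Of 18 compared genes of the integrated stress response, 0 rose, 6 fell and 12 stayed within 2-fold, with a median of -0.63. Slc7a5 and Slc3a2, the 2 chains of a large neutral amino acid transporter, fell from 119 to 44.5 and from 82.6 to 35.5 FPKM. Nupr1 and Chac1, stress-induced genes, fell from 5.01 to 0.281 and from 3.57 to 0.580 FPKM. Slc1a5, a glutamine transporter found by rank, fell from 27.0 to 2.61 FPKM, with 2.85 in E12.5 PGCs. Hspa5, a chaperone of the unfolded protein response, had 122 and 129 FPKM.

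Cholesterol synthesis was the metabolic list that leaned upward, though no member rose past the 2-fold line. Of 23 genes, 0 rose and 1 fell, and the median was 0.55, with differences from -1.12 to 0.993. The uncalled genes named here, Fdft1 and Srebf2, are by rule those nearest to no difference at 10 FPKM or more. Fdft1, the squalene synthase, had 37.0 and 37.4 FPKM (difference 0.02), with 24.1 in E12.5 PGCs. Ebp, a sterol isomerase, was the gene that fell, from 31.2 to 13.8 FPKM, while the regulator Srebf2 had 89.3 and 85.7.

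BMP targets split. Of 37 genes listed for posterior mesoderm and BMP, 18 were compared, with 6 higher, 5 lower and a median of -0.25. Id1 and Id4, inhibitors of helix-loop-helix factors and direct BMP targets, rose from 11.3 to 46.7 and from 1.66 to 9.11 FPKM, with 117 and 20.0 in E12.5 PGCs, and Id2 rose from 8.15 to 25.0. Id3, the most abundant of the family, had 196 and 151 FPKM. The inhibitory effector Smad7 fell from 21.8 to 6.94 FPKM and Smad6 had 12.0 and 10.0, while the ligand Bmp4 fell from 6.09 to 1.90. Among posterior patterning genes, Cdx1 and Evx1 fell from 4.37 to 0.776 and from 2.71 to 0.110 FPKM, and Cdx2 from 8.07 to 2.64. Gata2, a transcription factor, rose from 20.7 to 49.2 FPKM. Id2, Id3 and Gata2 are named after their values were seen.

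The list of FGF and ERK targets and immediate early genes moved in both directions. Spry2, a feedback inhibitor, fell from 26.9 to 6.78 FPKM and Etv4, a transcription factor, from 23.7 to 6.93, while the ERK phosphatase Dusp5 had 28.8 and 40.6. Fos and Fosb, which cells switch on within minutes of a stimulus, rose from 5.80 to 29.4 and from 0.600 to 8.44 FPKM, with 9.86 and 0.450 in E12.5 PGCs. In all, 4 of 19 rose and 6 fell, with a median of -0.19 that turns to 0.02 with equal sums. Jund, a related factor, had 77.9 and 68.3 FPKM. Egr1, another immediate early gene, rose from 13.1 to 30.1 FPKM, with 6.91 in E12.5 PGCs, and Ier3 fell from 20.3 to 4.62. Fos, Fosb and Egr1 were thus higher after reaggregation than in day 6 PGCLCs and in E12.5 PGCs alike. Egr1 is named after its values were seen.

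Regulators of DNA methylation stayed mostly within 2-fold. Of 11 compared genes, 2 rose and 0 fell, with a median of 0.37. Dnmt1, which copies methylation at replication, had 89.4 and 87.9 FPKM, and its partner Uhrf1 7.26 and 11.1, after 123 in ES cells and with 11.4 in E12.5 PGCs. Hells, a chromatin remodeller of the pathway, rose from 58.5 to 139 FPKM, and the de novo enzyme Dnmt3b from 0.864 to 3.04. The de novo enzyme Dnmt3a had 4.14 and 5.71 FPKM and the cofactor Dnmt3l 0.157 and 0.00840. The oxidising enzymes Tet1 and Tet2 had 31.5 and 3.84 FPKM at day 6 and 18.0 and 5.67 after. Transcript levels are not methylation levels, and methylation was not measured in these samples.

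Polycomb and other repressors of germline genes moved little, with 1 of 27 higher, 0 lower and a median of -0.20 that has the opposite sign with equal sums (0.02). Yaf2, a subunit of a Polycomb repressive complex, rose from 2.00 to 6.35 FPKM. The E-box readers Mga and Max had 14.8 and 59.9 FPKM at day 6 and 18.2 and 34.0 after, and the E2F reader E2f6 of the same repressor complex 12.1 and 10.4. Ehmt2, a histone H3 lysine 9 methyltransferase, had 44.6 and 44.6 FPKM. Mxd4, a MAX partner that was found by rank, rose from 0.596 to 18.0 FPKM, with 24.6 in E12.5 PGCs. Mga, Max and E2f6 are named after their values were seen.

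Imprinted genes showed large falls at several loci and rises at others. Of 36, 29 were compared, with 3 higher, 7 lower and a median of -0.36. Meg3 and Rian, noncoding RNAs of the imprinted Dlk1-Dio3 region expressed from the maternal copy, fell from 30.9 to 1.93 and from 11.0 to 0.710 FPKM. Both ended below E12.5 PGCs, where Meg3 and Rian had 5.34 and 3.16 FPKM. Meg3 and Rian lie at 109540996 to 109571729 and 109603945 to 109661716 on chromosome 12 (GRCm38, RefSeq). Dlk1, the paternally expressed gene of that region, fell from 5.39 to 1.47 FPKM. H19, a maternal noncoding RNA, had 0.0649 FPKM in ES cells, 159 at day 6, 43.7 after reaggregation and 32.4 in E12.5 PGCs, while its neighbour Igf2 had 13.4 and 7.93. Slc22a18 and Ascl2, of the Kcnq1 region, rose from 0.868 to 6.60 and from 0.237 to 2.96 FPKM. Ndn and Ube3a had 16.7 and 17.9 FPKM at day 6 and 15.6 and 20.6 after. Dlk1 is named after its values were seen, and allelic expression was not measured.

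The X chromosome was the one with the largest share of risers among the 20 listed, with 45 of 410 compared genes higher (11.0%), 23 lower (5.61%) and a median of 0.12, beside 6.18% higher, 6.29% lower and a median of -0.08 for autosomes. Among genes at 10 FPKM or more the X shares were 10 of 185 higher (5.41%) and 15 lower (8.11%), beside 2.67% and 7.10% on autosomes, and the X median there was -0.04. Risers included Dusp9, an ERK phosphatase that went from 5.29 to 60.4 FPKM (E12.5 PGCs 121), Cited1, a transcription cofactor that went from 0.487 to 12.7, and the germ cell genes Taf7l and Tex11, the latter at 0.533 and 3.17. Maged1, named after its values were seen, was the most abundant at 71.3 and 213 FPKM. Xist, the RNA that silences an X chromosome, had 1.93 and 2.13 FPKM, with its antisense partner Tsix near 0, and the sources used here do not say whether strand was used in counting. Of 15 X-linked genes chosen for their part in X inactivation and dosage, 0 rose and 1 fell (Pgk1, uncertain as above), with a median of -0.32, and the demethylase Kdm5c and the helicase Ddx3x, both known to escape inactivation, had 14.1 and 127 FPKM at day 6 and 16.2 and 109 after. On chromosome 8, 17 of 642 genes were higher (2.65%) and 49 lower (7.63%).

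**Figure D5:**
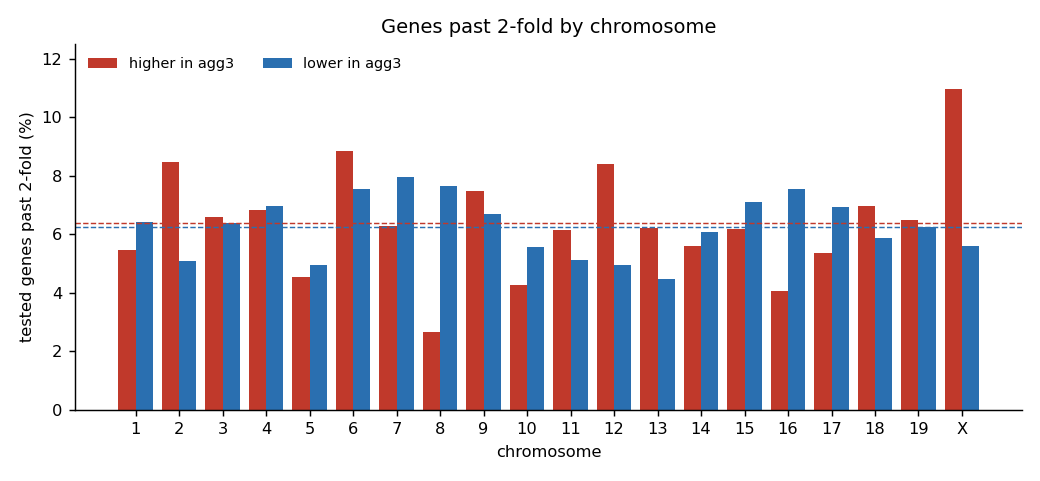
Bars give, for each chromosome, the percentage of compared genes at least 2-fold higher (red) or lower (blue) after reaggregation, with dashed lines at the 6.38% and 6.25% over all genes. The X chromosome has the tallest red bar (11.0%) and chromosome 8 the shortest (2.65%).

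Of 26 genes of replication licensing and proliferation, 0 rose and 2 fell (Mcm10 and Gins2), near the 6.25% lower over all genes, with a median of -0.37. Mki67, a marker of dividing cells, had 41.9 and 41.1 FPKM, and Mcm3, of the replicative helicase, 97.1 and 98.1. Among G1 regulators, 2 of 16 rose and 2 fell. The D-type cyclin Ccnd3 fell from 242 to 73.8 FPKM and its kinase Cdk4 from 336 to 152, while their target Rb1 rose from 7.00 to 16.1 and Ccnd1 from 0.173 to 3.40. Of 19 p53 targets, 0 rose and 0 fell, with Sesn2 at 21.4 and 21.5 FPKM and Ccng1 at 24.3 and 23.3, and their median of -0.20 has the opposite sign with quantile normalization (0.07) and equal sums (0.02).

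Adhesion and migration genes included some clear falls. Cxcr4, the chemokine receptor that guides migrating PGCs, fell from 31.7 to 12.1 FPKM (E12.5 PGCs 11.4), and Cldn7, a tight junction protein, from 80.7 to 19.0. Itga6, an integrin that binds laminin, rose from 1.88 to 8.48 FPKM, and Itgav, another integrin, fell from 9.12 to 3.83. The cadherin Cdh1 had 23.9 and 24.1 FPKM and Pecam1 85.7 and 80.1. In all 2 of 20 rose and 4 fell, and the list median of -0.20 has the opposite sign with quantile normalization (0.09) and equal sums (0.04). Krt18, a keratin, rose from 1.74 to 4.56 FPKM.

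Of 20 genes listed for the growing oocyte, 10 were under 1 FPKM in both groups and 10 were compared, with 2 higher and 1 lower. Sohlh2, an early oocyte transcription factor, rose from 7.50 to 41.8 FPKM (E12.5 PGCs 68.6), and Cpeb1, a regulator of stored mRNA, from 26.9 to 58.3. Figla, which starts the zona pellucida programme, had 0.418 and 0.938 FPKM, against 65.3 in secondary follicle oocytes from culture. Foxo3, which keeps follicles dormant, had 21.4 and 21.7 FPKM. Oosp1, an oocyte secreted protein, fell from 22.6 to 6.10 FPKM before the 650.0 of secondary follicle oocytes from culture.

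Among glutathione and oxidant defence genes, 2 of 20 rose and 1 fell, with Gpx1, a peroxidase, going from 363 to 177 FPKM and catalase (Cat) from 5.06 to 11.6. Slc23a1, a vitamin C transporter, rose from 0.450 to 3.71 FPKM, with 0.453 in E12.5 PGCs, as the 1 call among 16 transporters and dioxygenases that use vitamin C. Among MHC class I and interferon genes, 2 of 10 rose and 2 fell, with a median of -0.91. B2m, the light chain of MHC class I, rose from 2.11 to 6.42 FPKM, and Tapbp, which loads peptides on it, fell from 35.8 to 13.6. H2-D1 and H2-K1, heavy chain genes that share sequence with near-identical relatives, had 2.73 and 11.0 FPKM after reaggregation, the first up from 0.512, and both values are uncertain for that reason.

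Among the 20 genes that rose most and were named by rank, several belong to no list. Arhgdig, a GDP dissociation inhibitor, had 0.470 FPKM at day 6 and 13.2 after, Tuba3a, a germ cell tubulin with a near-identical relative and so an uncertain value, had 8.73 and 70.3, and Gchfr, a regulator of tetrahydrobiopterin synthesis, had 0.780 and 10.9. Lgals7, a galectin, had 0.521 and 10.2 FPKM, Sdc3, a syndecan, 2.14 and 14.9, and Larp1b, an RNA-binding protein, 1.34 and 11.3. The rest were Zdhhc2, C1ql1 and Rnf130, at 10.4, 11.5 and 22.5 FPKM after reaggregation. All of these were at 10 FPKM or more after the step, as the rule for naming asked.

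Among the 20 that fell most, Morc1, a germ cell ATPase known for transposon silencing in male germ cells, fell from 30.0 to 4.42 FPKM, with 4.40 in E12.5 PGCs. Lcp1, an actin bundling protein, fell from 31.8 to 4.04 FPKM, Tagln2, an actin-binding protein, from 39.9 to 3.86, and S100a6, a calcium-binding protein, from 63.0 to 8.74. Fabp3, a fatty acid binding protein, fell from 35.8 to 5.38 FPKM and Slc17a9, a vesicular nucleotide transporter, from 18.4 to 2.04. Rab25, a trafficking GTPase, fell from 15.4 to 1.13 FPKM, Marveld3, a tight junction protein, from 12.0 to 1.30, Ap1m2, an adaptor of protein sorting, from 23.9 to 3.37, and the keratin Krt7 from 10.8 to 1.13. Ly6g6e, Pxdc1 and Serpinb9b were also in the set, at 2.60, 0.937 and 4.75 FPKM after reaggregation.

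The called genes can be placed beside the other groups, which share the strain of the culture line or differ from it as given above. The 175 genes that rose to 10 FPKM or more had a median of 6.35 FPKM in ES cells, 5.38 at day 6, 15.3 after reaggregation, 17.8 in E12.5 PGCs and 7.27 in secondary follicle oocytes from culture. Of them, 153 had at least 10 FPKM in E12.5 PGCs and 54 in ES cells. The same counts were not made over all genes at 10 FPKM or more after reaggregation, so the 153 and 54 have no baseline. The 447 genes that fell from 10 FPKM or more had medians of 23.4 FPKM in ES cells, 30.5 at day 6, 9.98 after reaggregation, 8.96 in E12.5 PGCs and 4.84 in secondary follicle oocytes from culture. These genes were chosen by the day 6 and reaggregated values, so the first of these differences is fixed by the choice, and the values in the other groups are given as levels.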

How the data were processed

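Poly(A) RNA was sequenced on a HiSeq2000 from directional NEBNext libraries, per the labels' protocols. The authors used TopHat2, Bowtie2 2.0.13, Cufflinks and Cuffdiff 2.2.1 on mm10, per the submitters' processing notes, and deposited 1 table of FPKM with 1 column for each of 8 groups. A column is the authors' value for its group (2 day 6 and 3 reaggregated samples), so spread and depth are unknown and no test was made. FPKM divides by transcript length and library size, so a shift in a few abundant genes can move all others, and near-identical copies can share reads.

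From the deposited FPKM, log2(FPKM + 1) was taken for genes with at least 1 FPKM in either column, and a difference of 1 or more in size (2-fold) was called. The members and lists were chosen with earlier results of these data known. Of 724 list entries, 707 matched the table as written, 11 by another symbol and 6 not at all. Genes were named by rule: the 20 highest and 20 lowest differences at 10 FPKM or more, leaving out predicted or clone symbols (Gm with digits, Rik, LOC and the like) and small RNAs, up to 6 called and 2 uncalled genes per list, and a set of germ cell genes. Alternatives were the pseudocount, the filter, quantile normalization, centring and equal column sums. Gene positions and promoters came from RefSeq (GRCm38.p6), where 10824 compared genes matched by symbol and 620 by synonym. Python 3.11.15, pandas 2.3.3, NumPy 2.4.6 and matplotlib 3.10.9 were used. The calling code was run on simulated data with large changes set only in genes at 10 FPKM or more. That run does not measure errors in genes at lower levels or from replicate noise. A few genes are not reported here.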

Additional observations from a re-analysis of the deposited data

How the results depend on the processing

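The 733 higher genes became 1247 with a pseudocount of 0.1, 111 with a pseudocount of 5, 380 with a filter of 5 FPKM and 1115 with equal column sums. The 718 lower genes became 273 with a pseudocount of 5 and 457 with equal column sums. With a pseudocount of 5, 5 of 15 meiotic entry genes and 6 of 15 synaptonemal complex and axis genes rose, in place of 8 and 10. A larger pseudocount shrinks the differences of low genes by construction. Quantile normalization gave 661 higher and 661 lower, and centring on the median gave 888 and 576. Of 150 named genes that passed 2-fold, 135 still did with quantile normalization, 146 with centring and 138 with equal sums. With a pseudocount of 5, 89 still did, and with 0.1 all 150, and 0 changed direction under any of these. A smaller pseudocount enlarges every difference, so the 150 was fixed in advance. No pseudocount changes a direction, and centring and equal sums shift genes by less than 2-fold. Only quantile normalization could thus have reversed a named gene that passed 2-fold. The granulosa median of 1.11 was 0.51 with no pseudocount over genes at 1 FPKM or more in both columns. That setting drops the 9 of 11 compared granulosa genes under 1 FPKM at day 6, so the 0.51 describes few genes and not the list. No paired analysis was possible because the deposited columns pool the samples of a group and carry no replicate number, and leaving out a sample could not be run for the same reason.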

Other observations

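The higher calls lay mostly among low genes. By the mean of the 2 columns, 14.5% of genes under 2 FPKM were higher, 9.77% from 2 to 10 FPKM, 1.83% from 10 to 50 FPKM and 0.486% above that, while the share of lower genes was between 5.69% and 6.96% in all 4 ranges. The 6 higher genes above 50 FPKM on this mean were Dazl, Hells, Maged1, Mdk (34.3 FPKM at day 6 and 92.6 after), Serf1 (17.6 and 83.8) and Uchl1 (43.1 and 129.6), the last 3 named after their values were seen. Mdk is the growth factor midkine and Uchl1 a deubiquitinase known from germ cells and neurons.

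Short transcripts leaned lower. The compared genes were split into 5 equal classes by the length of their longest transcript in the GENCODE annotation. Of the shortest class, 10.6% were lower with a median difference of -0.23, against 3.11% and 0.08 in the longest class. The median transcript length was 2795 bases for glycolysis genes, 1297.5 for oxidative phosphorylation, 2994 for late germ cell genes, 2051 for the synaptonemal complex and axis, and 3299 over all compared genes. By GC content of the same transcripts, also in 5 classes, 3.02% of the lowest and 8.98% of the highest class were lower. The shares higher were 5.21% and 9.33%, so GC-rich genes passed 2-fold more often in both directions. The part of length and GC content in the list medians was not tested.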
